A study of Mus musculus with 13 samples.

Results

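Among the genes counted in tumour-draining lymph nodes and tumours of mice bearing melanoma, 50 encode matrix metalloproteinases (MMPs), ADAMTS proteases, tissue inhibitors of metalloproteinases (TIMPs) or lysyl oxidases. They were chosen by name from the 49315 genes listed in both deposited count tables, of which 21734 are protein-coding. The 22 Mmp, 19 Adamts, 4 Timp and 5 Lox or Loxl genes were taken where their Ensembl identifier matched a protein-coding symbol in the GENCODE M21 annotation of the mouse build GRCm38. The choice went by name alone, but it was made with earlier results of these data known.

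MMPs are zinc proteases that cut collagens, laminins and other matrix proteins, and most are made as inactive precursors. ADAMTS proteases are secreted relatives with thrombospondin repeats, which cut proteoglycans, trim procollagens or act on single blood and vessel proteins. TIMPs bind the active site of these proteases and block it. Lysyl oxidases work the other way on the matrix, since they oxidise lysines of collagen and elastin so that the fibres become crosslinked. In a lymph node the matrix forms a reticular network wrapped by stromal cells, and in solid tumours these enzymes are made by fibroblasts, macrophages and tumour cells.

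Whole tissue was sequenced in bulk from female mice in 3 groups of 3 libraries. The first group was the tumour-draining lymph node (tdLN) of Foxp3ΔJag1 mice, labelled Foxp3creERT2;Jag1fl, in which a tamoxifen-inducible eGFP-Cre fusion driven by Foxp3, which marks regulatory T cells, acts on floxed Jag1, the gene of the Notch ligand Jagged-1. The others were the tumour and the tdLN of Foxp3Ctrl mice, whose genotype is WT in the sample label and fl/wt in the design text. Mice of both genotypes had 5 doses of tamoxifen at 0.1 mg per gram at 6 to 8 weeks of age, and after 9 days B16F10 cells, a pigmented mouse melanoma line, were placed in the flank skin in matrigel at up to 11 weeks of age. By their library names, each Foxp3Ctrl tumour and the Foxp3Ctrl node of the same number came from the same mouse, whereas Foxp3ΔJag1 nodes came from other mice. All libraries carry batch 1 in the labels, and nothing else about dates or batches is given. Nothing beyond the spread among these animals enters the p-values.

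Libraries held between 32117478 and 44540888 counts. The deleted gene, Jag1, was at 27.8, 20.7 and 23.8 CPM (counts per 1000000 counts of the library) in Foxp3ΔJag1 nodes 1, 2 and 3, against 22.0, 23.2 and 24.4 CPM in Foxp3Ctrl nodes 1, 2 and 3 (edgeR adjusted p = 0.984). The groups overlapped, so the level of Jag1 in whole nodes does not check the genotype labels, and its level in Foxp3-expressing cells was not measured. Foxp3 itself was at 23.8, 17.8 and 17.5 CPM in Foxp3ΔJag1 nodes, against 12.2, 17.95 and 17.96 CPM in Foxp3Ctrl nodes (edgeR adjusted p = 0.953). Marker sums went with the labelled tissues: 7 melanoma markers summed to between 17648 and 23065 CPM in the tumours, against 10.8 to 36.5 CPM in Foxp3Ctrl nodes, and 5 B cell markers to between 1.88 and 3.30 CPM in the tumours, against 2832 to 3061 CPM in Foxp3Ctrl nodes. In bulk tissue, fewer cells of a type and less RNA per cell cannot be told apart.

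Most members were measurable. The mean was at least 1 CPM for 38 members in Foxp3ΔJag1 nodes, for 34 in Foxp3Ctrl tumours and for 38 in Foxp3Ctrl nodes, and at least 10 CPM for 12, 21 and 12 members in the same order of groups. Adamts16, Adamts19 and Mmp1b had no count in any node of either genotype. Mmp7 and Mmp20 had no count in any tumour.

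A block of 9 Mmp genes lies side by side on chromosome 9, in the order Mmp13, Mmp12, Mmp1b, Mmp3, Mmp10, Mmp8, Mmp27, Mmp20 and Mmp7, at chr9:7272514-7699585 (GRCm38). The 250 bases before the start of 5 of them, chosen after their values were seen, are printed because neighbours in this block went in different directions between tumour and node, as the values further on show. They come from RefSeq (GRCm38.p6), on the plus strand, 5′ to 3′, with matches to TGANTCA in capitals. TGANTCA takes in TGAGTCA and TGACTCA, the sites usually bound by AP-1, the Fos and Jun transcription factors, but is wider than these. As a pattern it reads the same on both strands, so each match covers both.

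Mmp13, chr9:7272264-7272513: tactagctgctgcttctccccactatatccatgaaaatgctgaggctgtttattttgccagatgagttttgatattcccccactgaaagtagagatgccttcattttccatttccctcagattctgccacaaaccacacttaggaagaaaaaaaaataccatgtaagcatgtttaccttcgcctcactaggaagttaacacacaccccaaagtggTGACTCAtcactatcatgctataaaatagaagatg
Mmp12, before the second of its starts, chr9:7347124-7347373: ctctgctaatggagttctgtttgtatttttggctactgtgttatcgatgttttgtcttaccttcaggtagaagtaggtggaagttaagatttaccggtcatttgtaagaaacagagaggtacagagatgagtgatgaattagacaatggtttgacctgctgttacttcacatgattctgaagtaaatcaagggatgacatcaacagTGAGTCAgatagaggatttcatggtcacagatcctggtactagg
Mmp3, chr9:7445572-7445821: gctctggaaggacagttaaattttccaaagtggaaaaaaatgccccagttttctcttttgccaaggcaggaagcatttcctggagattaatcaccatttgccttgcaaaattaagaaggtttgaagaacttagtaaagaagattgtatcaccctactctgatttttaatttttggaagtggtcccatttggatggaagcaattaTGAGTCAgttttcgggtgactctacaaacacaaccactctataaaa
Mmp8, chr9:7558179-7558428: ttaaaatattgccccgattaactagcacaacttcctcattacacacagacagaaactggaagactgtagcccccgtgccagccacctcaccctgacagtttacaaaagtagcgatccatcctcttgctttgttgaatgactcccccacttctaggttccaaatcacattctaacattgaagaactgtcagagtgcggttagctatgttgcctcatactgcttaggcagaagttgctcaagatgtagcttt
Mmp7, before the first of its starts, chr9:7691840-7692089: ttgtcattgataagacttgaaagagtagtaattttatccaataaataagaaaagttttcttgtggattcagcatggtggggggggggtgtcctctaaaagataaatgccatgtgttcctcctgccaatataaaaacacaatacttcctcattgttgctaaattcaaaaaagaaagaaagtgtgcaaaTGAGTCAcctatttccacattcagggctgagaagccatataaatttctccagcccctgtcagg

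The match starts 35 bases before the start in Mmp13, 44 in Mmp12, 46 in Mmp3 and 63 in Mmp7. Among the windows not printed, it starts 93 bases before the start in Mmp1b, 63 in Mmp10 and 95 in Mmp20, where it reads TGAATCA. Mmp8 and Mmp27 have none in this window, and neither does the window before the first start of Mmp12 or the second start of Mmp7. Of the 50 members, 32 had such a window in the RefSeq table. A match lay before at least one start of 7 of the 9 members in the block and of 0 of the 23 other members with a window, beside 6.75% of all 32851 windows in the table. These are matches of letters, not measured binding.

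**Figure D1:**
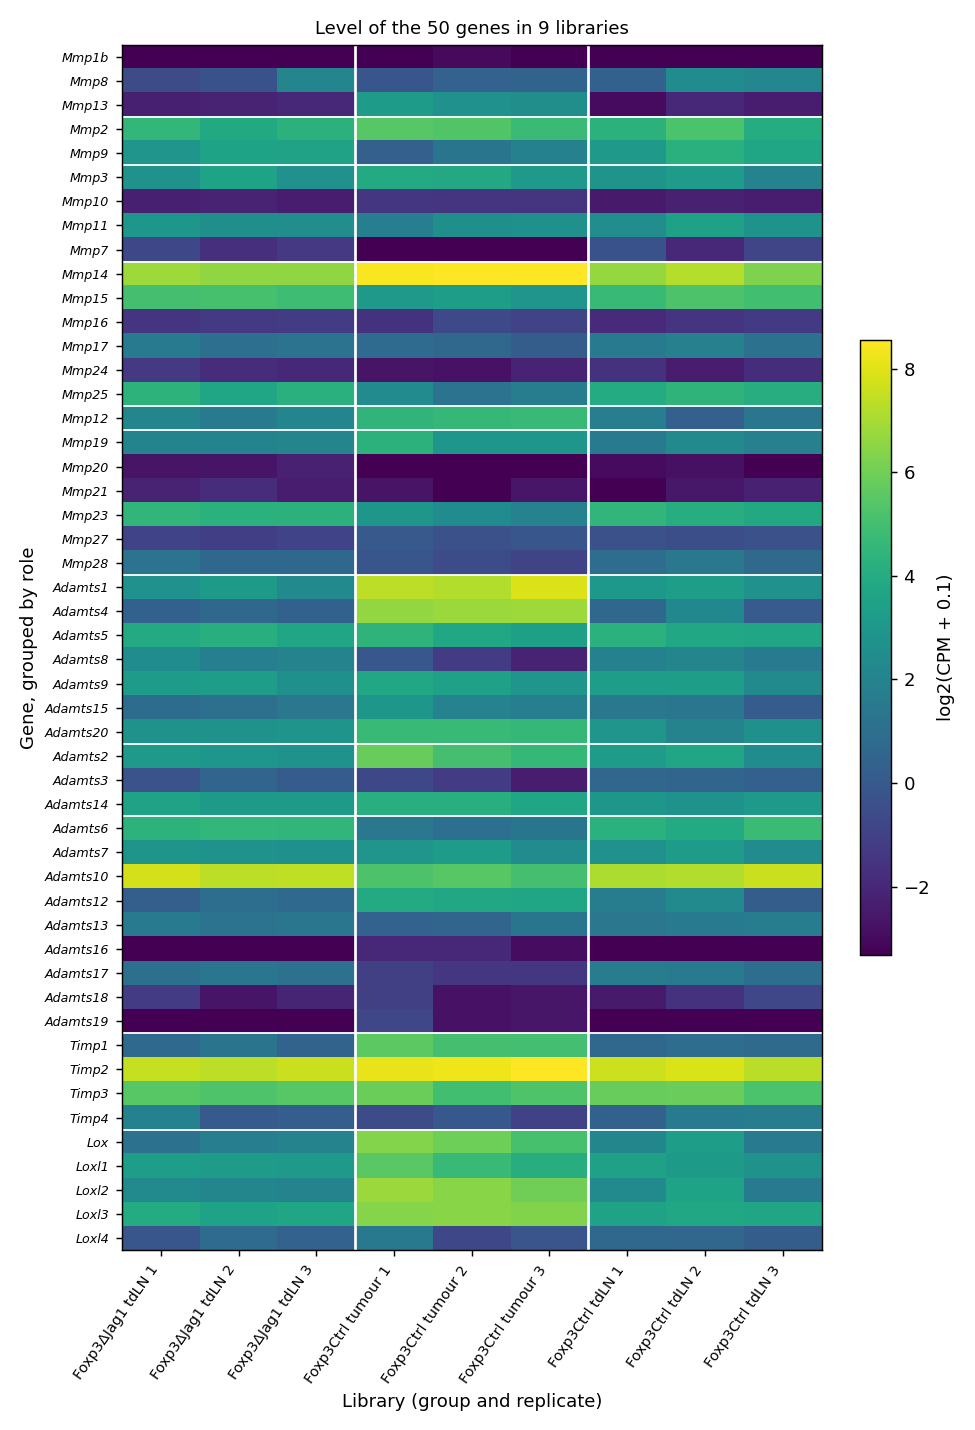
Heat map of the 50 members (down the page, grouped by role) in the 9 libraries (across, with Foxp3ΔJag1 nodes, Foxp3Ctrl tumours and Foxp3Ctrl nodes from left to right), coloured by log2(CPM + 0.1). The tumour columns stand apart from both sets of nodes, with Timp1, Adamts1, Adamts4, Loxl2 and Mmp13 higher and Adamts6, Adamts10 and Mmp25 lower, while the node columns of both genotypes have Timp2, Adamts10 and Mmp14 as their brightest cells.

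To set genes against each other, CPM was divided by exon length in kilobases. Timp2, which inhibits most MMPs and also helps Mmp14 to activate the precursor of Mmp2, had the highest level per kilobase in each group, with means of 46.3 ± 4.04 CPM per kilobase in Foxp3ΔJag1 nodes, 82.1 ± 10.8 in Foxp3Ctrl tumours and 51.5 ± 10.1 in Foxp3Ctrl nodes (SD, n = 3 each). In nodes of both genotypes the next were Adamts10, a protease linked to fibrillin microfibrils, and Mmp14, the main membrane-type MMP. Adamts10 was at 22.6 ± 3.75 and Mmp14 at 17.1 ± 1.79 CPM per kilobase in Foxp3ΔJag1 nodes. In Foxp3Ctrl nodes they were at 19.5 ± 3.95 and 18.6 ± 6.29 CPM per kilobase, a gap smaller than either SD. The lead of Timp2 over Adamts10 in nodes depends on the length used. With the longest transcript as the length, Timp2 was at 48.6 and Adamts10 at 45.3 CPM per kilobase in Foxp3ΔJag1 nodes. In Foxp3Ctrl nodes the same values were 54.1 and 39.0.

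The order was another in Foxp3Ctrl tumours. Mmp14 came second at 61.4 ± 2.53 CPM per kilobase, followed by Timp1 at 42.5 ± 9.70, Adamts1 at 35.0 ± 10.0 and Adamts4 at 22.4 ± 1.43, whereas Adamts10 was at 4.64 ± 0.655. Timp1 and Adamts1 did not differ beyond their spread. Divided by the longest transcript instead of all exons, Mmp14 (112.9 CPM per kilobase) stood above Timp2 (86.3) in tumours, so the order of the leading pair depends on the length used. Mmp14 took between 71.3 and 78.2% of the reads of all Mmp genes in tumours and between 39.6 and 47.2% in Foxp3Ctrl nodes.

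**Figure D2:**
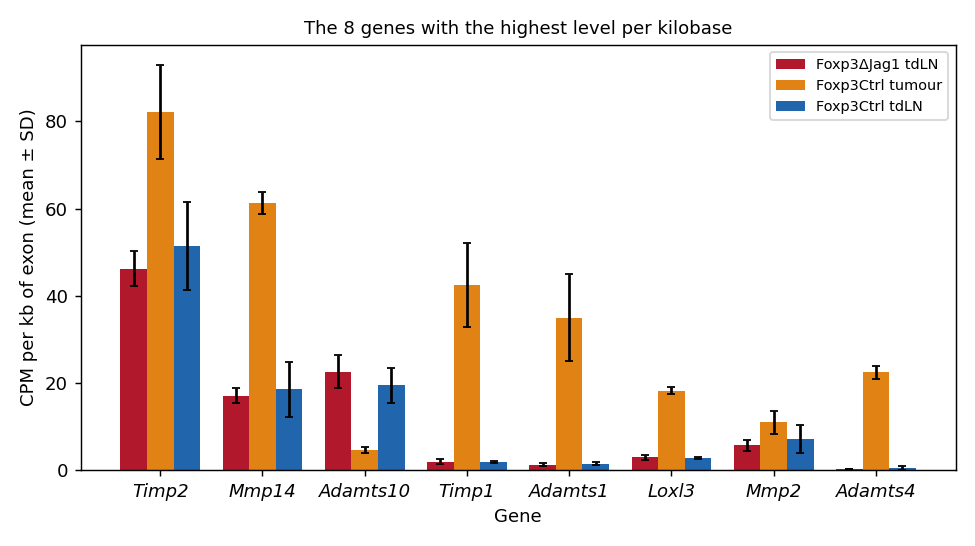
Bars give the level per kilobase of exon (CPM per kb) of the 8 members with the highest mean over the 9 libraries, as the mean of 3 libraries with SD, for Foxp3ΔJag1 nodes, Foxp3Ctrl tumours and Foxp3Ctrl nodes. Timp2 is highest in each group, Timp1 is at 42.5 in tumours against 1.84 in Foxp3Ctrl nodes, and Adamts10 is at 4.64 in tumours against 19.5 in Foxp3Ctrl nodes.

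The first comparison asked whether deletion of Jag1 under Foxp3 went with a change in matrix enzymes of the draining node. The series title puts lymphatic remodelling in this tissue. No member was called as higher or lower. Of the 41 members with enough counts to be tested, 0 passed an edgeR adjusted p of 0.05, beside 0.038% of all 18440 genes tested (7 genes). At an unadjusted edgeR p under 0.05 there was 1 member, beside 3.15% of all genes. DESeq2 called 0 members, beside 0.239% of all genes, and 4 at an unadjusted p under 0.05, beside 3.3%. limma-voom called 0 members, beside 0.0325% of all genes, and 2 unadjusted, beside 3.2%. The smallest adjusted p of a member was 0.953 with edgeR. The 9 members left out by the low-count filter were Adamts16, Adamts18, Adamts19, Mmp1b, Mmp10, Mmp13, Mmp20, Mmp21 and Mmp24, none with a mean above 0.265 CPM in either node group.

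Of the 41 fold changes, 25 were below 0 and 16 above, with a median log2 fold change of -0.15, beside -0.0045 for all genes tested. Among them only Mmp27 and Adamts14 had node groups that did not overlap in CPM (4.88% of the members tested, beside 7.29% of all genes). The medians were -0.21 for 16 Mmp, -0.08 for 16 Adamts, -0.23 for 4 Timp and -0.15 for 5 Lox genes.

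The 6 members with the smallest p give the size of what was seen. Mmp27, a little-studied member of the chromosome 9 block, was at 0.417, 0.362 and 0.427 CPM in Foxp3ΔJag1 nodes 1, 2 and 3, against 0.661, 0.627 and 0.677 CPM in Foxp3Ctrl nodes 1, 2 and 3. All Foxp3ΔJag1 nodes were below all Foxp3Ctrl nodes, and the level is under 1 CPM in every node (log2 fold change -0.72 ± 0.27 SE, edgeR adjusted p = 0.953). Adamts14, a procollagen N-proteinase, was at 11.2, 8.93 and 8.82 CPM in Foxp3ΔJag1 nodes, against 7.63, 6.66 and 8.43 CPM in Foxp3Ctrl nodes. Here the groups also stood apart, narrowly, with a log2 fold change of 0.33 ± 0.15 (SE, edgeR adjusted p = 0.953).

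Mmp12, the macrophage elastase, was at 4.24, 2.99 and 4.27 CPM in Foxp3ΔJag1 nodes, against 3.25, 1.14 and 2.43 CPM in Foxp3Ctrl nodes (log2 fold change 0.74 ± 0.35 SE). The groups overlapped, since Foxp3ΔJag1 node 2 lay below Foxp3Ctrl node 1. The summed CPM of 7 macrophage markers was 844, 717 and 829 in Foxp3ΔJag1 nodes, against 858, 1090 and 512 in Foxp3Ctrl nodes. The part of these cells in the Mmp12 values was not tested.

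For the other 3, Foxp3Ctrl node 2 stood above every other node. Lox, the founding lysyl oxidase, was at 2.03, 3.26 and 3.84 CPM in Foxp3ΔJag1 nodes, against 4.27, 9.71 and 2.96 CPM in Foxp3Ctrl nodes. Adamts12, which cuts the cartilage protein COMP, was at 1.12, 1.87 and 1.57 CPM in Foxp3ΔJag1 nodes, against 3.14, 5.06 and 1.04 CPM in Foxp3Ctrl nodes. Adamts4, an aggrecan-cutting protease, was at 1.20, 1.48 and 1.19 CPM in Foxp3ΔJag1 nodes, against 1.46, 4.57 and 0.959 CPM in Foxp3Ctrl nodes. In each of the 3 genes Foxp3Ctrl node 3 fell within or below the Foxp3ΔJag1 range. The log2 fold changes were -0.93 ± 0.48, -1.06 ± 0.54 and -0.91 ± 0.57 (SE), and without Foxp3Ctrl node 2 they were -0.26, -0.48 and 0.075.

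**Figure D3:**
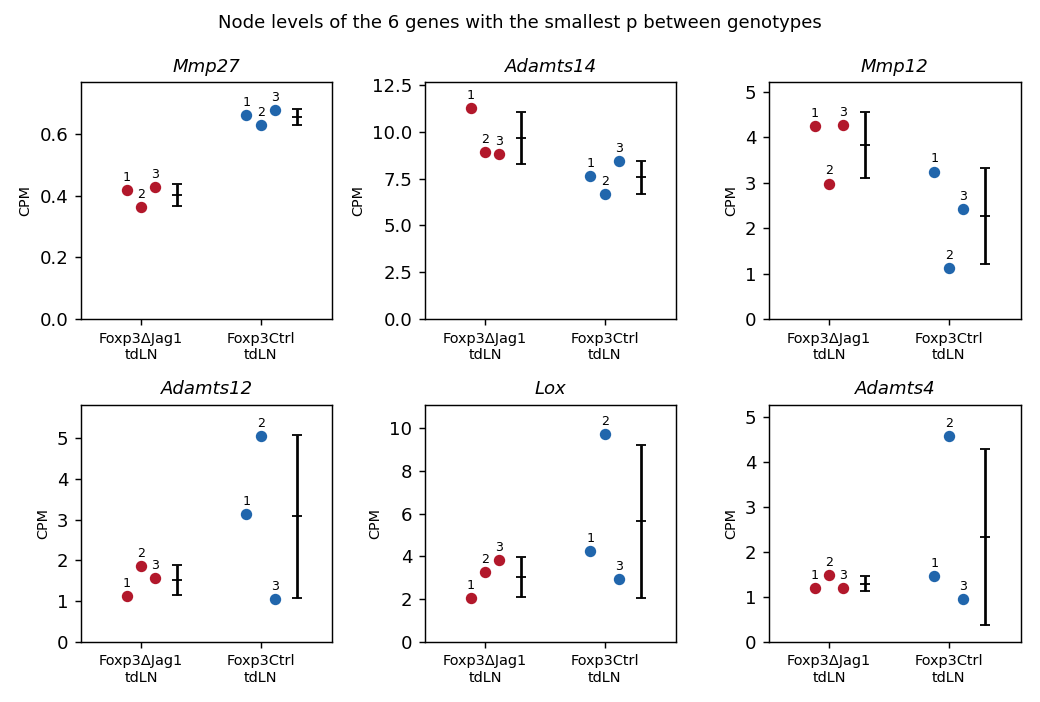
CPM of the 6 members with the smallest p between the node groups, with 1 numbered point per library and a bar for the mean ± SD, Foxp3ΔJag1 nodes left of Foxp3Ctrl nodes in each panel. The groups stand apart for Mmp27 and Adamts14 and overlap for Mmp12, Lox, Adamts12 and Adamts4, where the high point of the last 3 is Foxp3Ctrl node 2.

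The other Timp and Lox genes did not pass either. Timp2 was at 181, 164 and 196 CPM in Foxp3ΔJag1 nodes, against 199, 241 and 162 CPM in Foxp3Ctrl nodes (log2 fold change -0.18 ± 0.15 SE). Timp3, which binds the matrix and inhibits ADAMTS proteases as well as MMPs, was at 44.7, 38.6 and 44.6 CPM in Foxp3ΔJag1 nodes, against 56.2, 58.1 and 36.8 CPM in Foxp3Ctrl nodes (-0.27 ± 0.19 SE). For both genes the Foxp3ΔJag1 nodes lay inside the range of the Foxp3Ctrl nodes. Timp1 had a log2 fold change of 0.04 ± 0.27 and Timp4 of -0.42 ± 0.60 (SE), and Timp4 was split within both groups, at 3.64, 0.935 and 1.06 CPM in Foxp3ΔJag1 nodes, against 1.21, 3.02 and 3.19 CPM in Foxp3Ctrl nodes. The summed CPM of 6 adipocyte markers was split in a like way, at 188, 25.2 and 20.4 in Foxp3ΔJag1 nodes, against 20.5, 82.5 and 155 in Foxp3Ctrl nodes, with none of the 3 tested passing edgeR and none at 0 in either group. Most of this sum was Fabp4, at 154, 21.8 and 19.1 CPM in Foxp3ΔJag1 nodes, against 19.0, 80.1 and 132 CPM in Foxp3Ctrl nodes. Adipoq was at 9.66, 0.452 and 0.337 CPM in Foxp3ΔJag1 nodes, against 0.330, 0.557 and 4.57 CPM in Foxp3Ctrl nodes. In Adipoq, Foxp3Ctrl node 2 was thus near Foxp3Ctrl node 1, unlike in Timp4. The part of fat in the Timp4 values was not tested. Loxl1, which is needed for elastic fibres, Loxl3 and Loxl4 had log2 fold changes of 0.02 ± 0.20, 0.07 ± 0.14 and -0.15 ± 0.32 (SE), and Loxl2 had -0.61 ± 0.51 (SE).

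Among the most abundant proteases, Mmp14 was at 114, 95.03 and 96.5 CPM in Foxp3ΔJag1 nodes, against 103, 151 and 77.6 CPM in Foxp3Ctrl nodes (log2 fold change -0.15 ± 0.26 SE). Mmp2, the gelatinase that Mmp14 activates, was at 23.1, 14.9 and 19.9 CPM in Foxp3ΔJag1 nodes, against 19.9, 36.4 and 16.2 CPM in Foxp3Ctrl nodes (-0.36 ± 0.35 SE). In both, Foxp3Ctrl node 2 was highest, and the log2 fold change was above 0 without it, at 0.16 and 0.085. Adamts10 had 0.20 ± 0.15 and Adamts1, which cuts versican, -0.32 ± 0.25 (SE). Mmp8, the neutrophil collagenase, was at 0.573, 0.694 and 4.09 CPM in Foxp3ΔJag1 nodes, against 1.18, 5.46 and 4.48 CPM in Foxp3Ctrl nodes. The summed CPM of 7 neutrophil markers went the same way, at 17.4, 48.5 and 131 in Foxp3ΔJag1 nodes, against 74.4, 208 and 116 in Foxp3Ctrl nodes, and its part in the Mmp8 values was not tested.

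The spread between Foxp3Ctrl nodes was seen in many members. Of the 38 members with a mean of at least 1 CPM over the 6 nodes, 19 were highest in Foxp3Ctrl node 2 and 16 were lowest in Foxp3Ctrl node 3. The same counts were not made over all genes, so a shift of a whole library cannot be told apart from one of the members. The median ratio of a member to its mean over the 6 nodes was 1.03, 0.951 and 0.910 in Foxp3ΔJag1 nodes 1, 2 and 3, against 0.954, 1.22 and 0.831 in Foxp3Ctrl nodes 1, 2 and 3. Foxp3Ctrl nodes 2 and 3 therefore lay on either side of all 3 Foxp3ΔJag1 nodes. Some marker sums moved with this, and others only in part. Over 7 fibroblast markers the sums were 455, 682 and 600 CPM in Foxp3ΔJag1 nodes, against 743, 895 and 442 CPM in Foxp3Ctrl nodes. Over 6 lymphatic endothelial markers they were 127, 114 and 125 CPM in Foxp3ΔJag1 nodes, against 158, 270 and 68.4 CPM in Foxp3Ctrl nodes. For 5 fibroblastic reticular cell markers they were 200, 208 and 178 CPM in Foxp3ΔJag1 nodes, against 211, 188 and 132 CPM in Foxp3Ctrl nodes. Pericyte and smooth muscle markers (7) summed to 265, 317 and 280 CPM in Foxp3ΔJag1 nodes, against 336, 335 and 255 CPM in Foxp3Ctrl nodes. In these last lists Foxp3Ctrl node 3 was lowest, but Foxp3Ctrl node 2 was not the highest. None of the markers of these lists was at 0 in a node group and none passed edgeR. Foxp3Ctrl node 3 also stood apart in mammary epithelial markers, of which 7 summed to 9.22, 7.39 and 11.2 CPM in Foxp3ΔJag1 nodes, against 12.9, 33.8 and 119 CPM in Foxp3Ctrl nodes. Krt19 alone was at 35.3 CPM in Foxp3Ctrl node 3. Of the 5 mammary markers tested, 4 were lower in Foxp3ΔJag1 nodes at an unadjusted edgeR p under 0.05, and Csn3 and Wap were at 0 in Foxp3ΔJag1 nodes. Over 6 mast cell markers the sums were 41.5, 55.6 and 46.4 CPM in Foxp3ΔJag1 nodes, against 59.3, 78.9 and 91.2 CPM in Foxp3Ctrl nodes, with 5 of 6 lower at an unadjusted p under 0.05 and none at 0. No marker of these lists passed the adjusted p either, and the part of any of these cells in the members' values was not tested.

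Leaving out Foxp3Ctrl node 2 gave a median log2 fold change of 0.04 over the members tested. Without Foxp3Ctrl node 3 it was -0.33, with 12 of 41 members at an unadjusted edgeR p under 0.05, of which 9 were below 0, beside 16.9% of all genes in the same fit. The smallest edgeR adjusted p of a member there was 0.118, for Timp3, so 0 members passed in that fit as well.

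**Figure D4:**
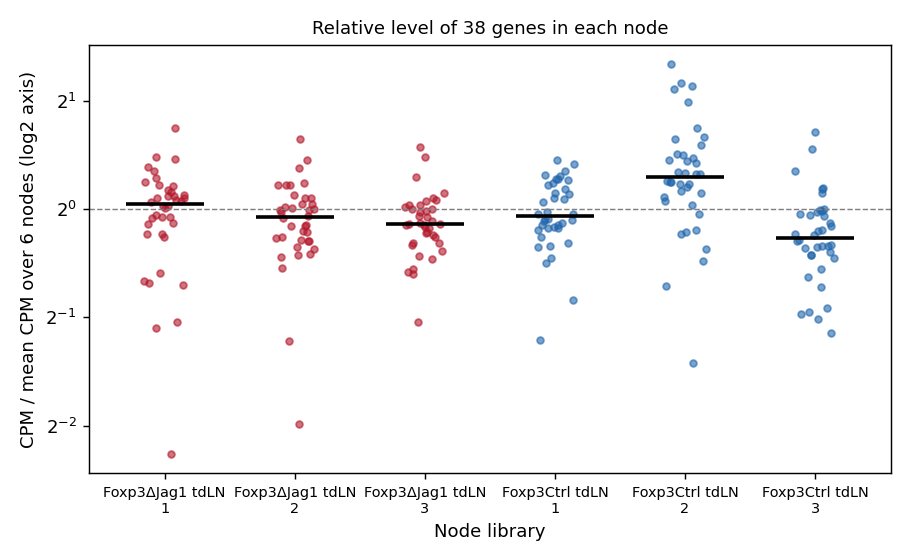
Ratio of each member to its mean over the 6 nodes, 1 point per member and node for the 38 members at a mean of at least 1 CPM, with the median of each node marked and Foxp3ΔJag1 nodes left of Foxp3Ctrl nodes. The medians of the Foxp3ΔJag1 nodes lie between 0.910 and 1.03, inside the span from 0.831 in Foxp3Ctrl node 3 to 1.22 in Foxp3Ctrl node 2.

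The second comparison set Foxp3Ctrl tumours against the Foxp3Ctrl nodes of the same mice. It shares the Foxp3Ctrl nodes with the first comparison. Of the 41 members tested, 17 rose in tumours, 13 fell and 11 did not pass an edgeR adjusted p of 0.05. That is close to the background of these very different tissues, in which 73.2% of all 18566 genes tested were called, 35.6% as higher and 37.6% as lower. The median log2 fold change was 0.39, beside -0.05 for all genes. The groups did not overlap for 31 of the 41 members (75.6%, beside 77.9% of all genes). With the mouse as a block, 19 members rose, beside 35.2% of all genes, and 13 fell, beside 36.9%. Lysyl oxidases had 4 of 5 higher and 0 lower, whereas Mmp genes went both ways, with 4 higher and 7 lower of 16.

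**Figure D5:**
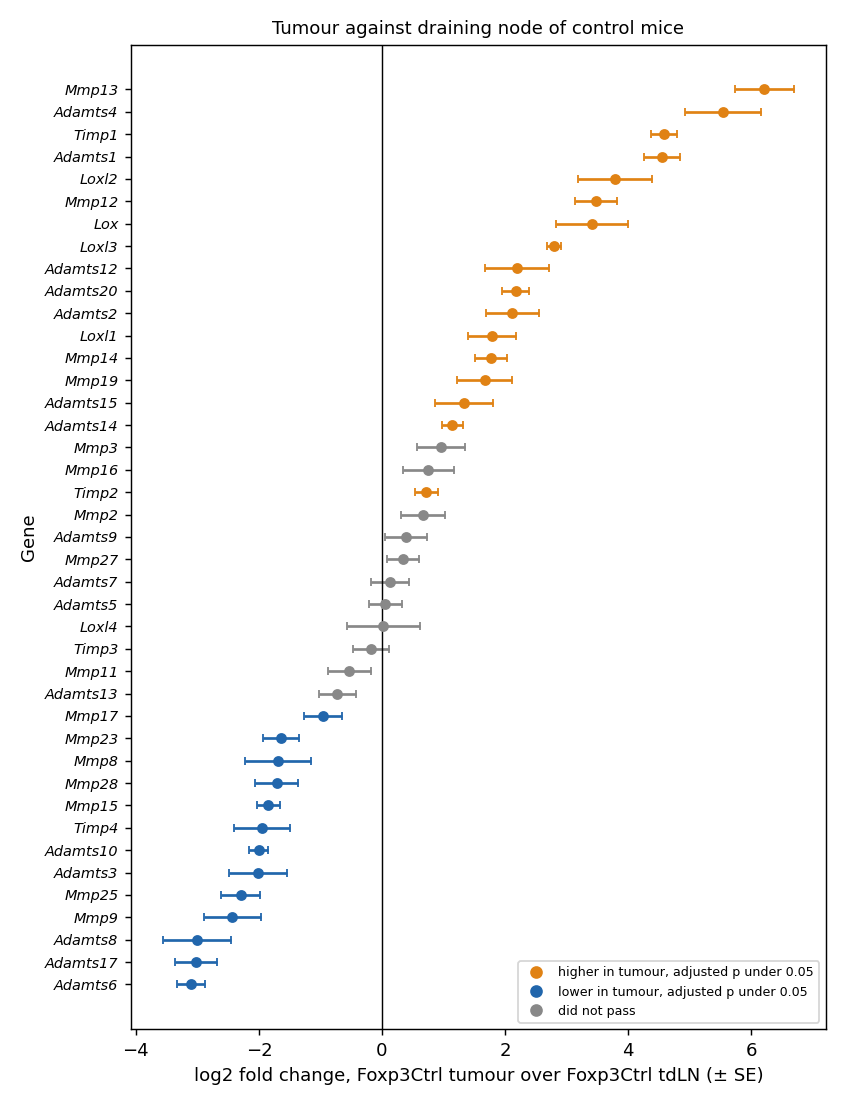
Log2 fold change of tumour over node (Foxp3Ctrl, 3 libraries each) for the 41 members tested, with SE bars, sorted by size and coloured by the edgeR call. Mmp13 (6.22), Adamts4 (5.54) and Timp1 (4.58) lie farthest to the right, and Adamts6 (-3.11), Adamts17 (-3.03) and Adamts8 (-3.01) farthest to the left.

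Among the collagenases, stromelysins and their neighbours on chromosome 9, Mmp13 and Mmp12 rose. Mmp13, the main collagenase of mouse connective tissue, had 9.11, 6.27 and 5.70 CPM in tumours 1, 2 and 3, against 0.0275, 0.163 and 0.0846 CPM in Foxp3Ctrl nodes 1, 2 and 3. It passed the low-count filter through its tumour counts alone, and the node values rest on 11 reads in all, against 782 in the tumours, a ratio of 73.8 with an exact 95% counting interval of 41.0 to 148 (log2 fold change 6.22 ± 0.48 SE, edgeR adjusted p = 1.27e-05, and 6.98 without Foxp3Ctrl node 2). Mmp12 had 21.5, 24.4 and 26.4 CPM in tumours, against 3.25, 1.14 and 2.43 CPM in Foxp3Ctrl nodes (3.48 ± 0.34 SE, edgeR adjusted p = 6.00e-05). Its neighbour Mmp1b shares exon bases with it on the other strand and had 1 read in the tumours.

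The macrophage marker sum was between 497 and 707 CPM in tumours, against 512 to 1090 CPM in Foxp3Ctrl nodes, and its markers went both ways. Adgre1 was higher, at 51.3 ± 14.9 CPM in tumours and 23.6 ± 8.56 CPM in Foxp3Ctrl nodes (SD, n = 3 each), Marco and Csf1r were lower, and none of the 7 was at 0 in either group. The part of these cells in the Mmp12 values was not tested.

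The other members of the block went different ways. Mmp7, matrilysin, had 0 counts in all 3 tumours, against 25, 7 and 16 counts in Foxp3Ctrl nodes, which is at least 15.4-fold lower against a floor of 3 counts over the group, a bound that covers counting error only. Mmp8 fell in tumours, to 0.799, 1.24 and 1.28 CPM, against 1.18, 5.46 and 4.48 CPM in Foxp3Ctrl nodes (log2 fold change -1.69 ± 0.54 SE, edgeR adjusted p = 0.0226), though the groups overlapped and the call ended with limma-voom (adjusted p = 0.0659). It also ended in edgeR fits without tumour 1, tumour 2, tumour 3, Foxp3Ctrl node 2 or Foxp3Ctrl node 3, with adjusted p between 0.0534 and 0.0780, and in the edgeR fit of all 9 libraries together (0.0891). Mmp3, stromelysin-1, had 15.5, 14.5 and 8.25 CPM in tumours, against 6.97, 9.43 and 3.84 CPM in Foxp3Ctrl nodes, and did not pass (0.96 ± 0.39 SE, edgeR adjusted p = 0.0556). It was higher in the tumour of each mouse, by 2.23, 1.54 and 2.15 times in mice 1, 2 and 3, and passed with the mouse as a block (edgeR adjusted p = 0.00362), with DESeq2 (0.0173), with limma-voom (0.0402), and in edgeR fits of all 9 libraries (0.0467), without tumour 3 (0.0214) or without Foxp3Ctrl node 2 (0.0227). Mmp27 did not pass, at a log2 fold change of 0.34 ± 0.26 (SE). Mmp10, the second stromelysin, was under the low-count filter, at 0.266, 0.244 and 0.249 CPM in tumours, against 0.0826, 0.116 and 0.0846 CPM in Foxp3Ctrl nodes. Every tumour lay above every node, with 28 counts in tumours, against 11 in Foxp3Ctrl nodes, a ratio of 2.64 with a counting interval of 1.28 to 5.88, and without the filter it passed (edgeR adjusted p = 0.0445). So of the 7 members of the block with a TGANTCA match, Mmp13 and Mmp12 rose in tumours, Mmp3 and Mmp10 were higher there with calls that depended on the fit or filter, Mmp7 and Mmp20 had 0 counts there, and Mmp1b had 1. Of the other 2, Mmp8 was lower and Mmp27 did not pass.

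The gelatinases went apart. Mmp9, made by many leukocytes, fell to 1.15, 2.34 and 3.58 CPM in tumours, against 8.18, 18.3 and 12.9 CPM in Foxp3Ctrl nodes, with no overlap (log2 fold change -2.43 ± 0.47 SE, edgeR adjusted p = 0.00218). Mmp2 had 43.8, 40.7 and 27.0 CPM in tumours, against 19.9, 36.4 and 16.2 CPM in Foxp3Ctrl nodes, and did not pass (0.66 ± 0.36 SE, edgeR adjusted p = 0.139). Within mice it was 2.20, 1.12 and 1.67 times higher in the tumour, and with the mouse as a block it passed (edgeR adjusted p = 0.0185).

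Of the 5 membrane-type MMPs tested (Mmp14, Mmp15, Mmp16, Mmp17 and Mmp25), only Mmp14 rose. It was at 349, 378 and 370 CPM in tumours, against 103, 151 and 77.6 CPM in Foxp3Ctrl nodes. Every tumour lay far above every node (log2 fold change 1.77 ± 0.26 SE, edgeR adjusted p = 0.000579). Mmp15, Mmp17 and Mmp25 fell, with log2 fold changes of -1.85, -0.96 and -2.30. Mmp25, a GPI-anchored enzyme known from neutrophils in humans, had 5.25, 2.17 and 3.21 CPM in tumours, against 15.97, 21.01 and 17.0 CPM in Foxp3Ctrl nodes. Mmp17 lost its call without tumour 2, tumour 3, Foxp3Ctrl node 1 or Foxp3Ctrl node 2 (edgeR adjusted p between 0.0532 and 0.0802). Mmp8, Mmp9 and Mmp25 fell beside 7 neutrophil markers, which summed to between 1.66 and 2.90 CPM in tumours, against 74.4 to 208 CPM in Foxp3Ctrl nodes, with 6 of the 6 tested lower and none at 0 in either group. Among Foxp3ΔJag1 nodes, Mmp25 was highest in node 1, at 20.4 CPM, where the neutrophil sum was lowest, at 17.4 CPM. Among Foxp3Ctrl nodes, both were highest in node 2. The B cell sum also fell in tumours, as given above. So did 6 T cell markers, which summed to between 33.4 and 51.0 CPM in tumours, against 1192 to 1495 CPM in Foxp3Ctrl nodes. The part of any of these cells in the falls was not tested.

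Mmp19 rose (log2 fold change 1.67 ± 0.44 SE) and Mmp23 and Mmp28 fell (-1.64 ± 0.29 and -1.71 ± 0.35 SE). Mmp19 was highest in tumour 1, at 19.97 CPM beside 7.54 and 7.41 CPM in tumours 2 and 3, against 2.86, 4.95 and 3.53 CPM in Foxp3Ctrl nodes, and without tumour 1 its log2 fold change was 1.06 (edgeR adjusted p = 0.0119). Since the strand setting of the counting is not given in the sources used here, reads of Mmp19 and Mmp28 cannot be told apart from those of Tmem198b and 1700020L24Rik on the other strand, which cover 22.3 and 12.03% of their exon bases. Mmp11, stromelysin-3, and the membrane-type Mmp16 did not pass (log2 fold changes -0.53 ± 0.35 and 0.75 ± 0.42 SE). Mmp20, the enamel protease, Mmp21, Mmp24 and Adamts18 were too low to be tested, none with a mean above 0.265 CPM in either group.

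The ADAMTS proteases that cut proteoglycans held the largest rises of their family. Of 7 tested, 4 rose and 1 fell, beside 35.6% of all genes called higher and 37.6% lower, so the number called is near the background. Adamts4 had 100.4, 110 and 114 CPM in tumours, against 1.46, 4.57 and 0.959 CPM in Foxp3Ctrl nodes (log2 fold change 5.54 ± 0.62 SE, edgeR adjusted p = 0.00036, and 6.56 without Foxp3Ctrl node 2). Adamts1 had 167, 144 and 245 CPM in tumours, against 7.93, 10.1 and 6.43 CPM in Foxp3Ctrl nodes (4.55 ± 0.29 SE, edgeR adjusted p = 9.43e-06). The tumours were uniform for Adamts4, while the nodes spread, so that its tumour to node ratio was 68.8, 24.0 and 119 in mice 1, 2 and 3. Adamts20, which is mutated in belted mice with a white band of unpigmented skin, rose 4.50-fold, at 25.4, 25.4 and 23.8 CPM in tumours, against 7.19, 3.88 and 6.23 CPM in Foxp3Ctrl nodes. Adamts5, the other aggrecanase, averaged 15.1 ± 5.15 CPM in tumours and 15.1 ± 3.42 CPM in Foxp3Ctrl nodes (SD, n = 3 each). Adamts4 and Adamts5, which share the cleavage of aggrecan, thus had log2 fold changes of 5.54 and 0.05.

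Adamts8 fell, at 0.825, 0.317 and 0.125 CPM in tumours, against 3.66, 4.11 and 2.96 CPM in Foxp3Ctrl nodes (log2 fold change -3.01 ± 0.55 SE, edgeR adjusted p = 0.00153, and -3.88 without tumour 1). The tumour values rest on 48 counts and the gene reached the low-count filter in all 3 nodes but in 2 of 3 tumours, so it was tested through the nodes, where it is high, and 10.6% of its exon bases overlap the antisense gene Gm29724. Adamts15 rose by 1.33 ± 0.47 on the log2 scale, a call lost without tumour 1 (edgeR adjusted p = 0.106), Foxp3Ctrl node 2 (0.0533) or Foxp3Ctrl node 3 (0.0716). Adamts9 did not pass (0.39 ± 0.35 SE).

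Of the 3 procollagen N-proteinases, which remove the amino-terminal propeptide from fibrillar procollagens, Adamts2 and Adamts14 rose and Adamts3 fell. Adamts2 had 55.9, 33.4 and 24.1 CPM in tumours, against 9.06, 12.4 and 5.33 CPM in Foxp3Ctrl nodes (log2 fold change 2.12 ± 0.43 SE). Adamts3, which also activates the lymphatic growth factor VEGF-C, had 0.506, 0.317 and 0.0934 CPM in tumours, against 1.40, 1.37 and 1.16 CPM in Foxp3Ctrl nodes (-2.01 ± 0.48 SE, edgeR adjusted p = 0.00544). It has 35 counts over the tumours and, like Adamts8, was tested through the nodes, where it is high. The groups did not overlap for any of the 3. In Foxp3ΔJag1 nodes Adamts3 was at 0.729, 1.36 and 0.988 CPM and did not pass against Foxp3Ctrl nodes (-0.39 ± 0.29 SE, edgeR adjusted p = 0.953).

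Among the other ADAMTS genes, Adamts6, Adamts10 and Adamts17 fell and Adamts12 rose. Adamts10 had 37.5, 44.0 and 33.3 CPM in tumours, against 136, 148 and 198 CPM in Foxp3Ctrl nodes (log2 fold change -2.005 ± 0.15 SE, edgeR adjusted p = 1.28e-05). Adamts6, its close relative, had 2.503, 1.93 and 2.34 CPM in tumours, against 18.9, 15.2 and 27.0 CPM in Foxp3Ctrl nodes (-3.11 ± 0.23 SE, edgeR adjusted p = 9.87e-06). Adamts17, mutated in a human short-stature syndrome, had 0.373, 0.268 and 0.280 CPM in tumours, against 3.19, 2.76 and 1.89 CPM in Foxp3Ctrl nodes (-3.03 ± 0.34 SE, edgeR adjusted p = 9.92e-05), with 34 counts over the tumours, and was likewise tested through the nodes. In these 3 genes every tumour was well below every node. Adamts12 had 15.3, 13.9 and 12.5 CPM in tumours, against 3.14, 5.06 and 1.04 CPM in Foxp3Ctrl nodes (2.20 ± 0.52 SE, and 2.80 without Foxp3Ctrl node 2). Adamts7, the other protease of COMP, did not pass (0.13 ± 0.31 SE). Adamts13, which cuts von Willebrand factor, had 1.22, 1.39 and 2.37 CPM in tumours, against 2.51, 2.97 and 3.07 CPM in Foxp3Ctrl nodes, with no overlap, and did not pass (-0.73 ± 0.30 SE, edgeR adjusted p = 0.0567). It passed as lower with limma-voom (0.0309), and in edgeR fits by library size only (0.0484), with the CPM filter (0.0447), of all 9 libraries (0.0301) or without tumour 3 (0.0133). Adamts16 and Adamts19, at 13 and 22 counts over the tumours and 0 in Foxp3Ctrl nodes, were at least 4.50-fold and 7.61-fold higher against the same floor.

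The inhibitors split too. Timp1, a secreted inhibitor that many cells make on stimulation, had 47.7, 33.4 and 32.2 CPM in tumours, against 1.49, 1.81 and 1.61 CPM in Foxp3Ctrl nodes (log2 fold change 4.58 ± 0.21 SE, edgeR adjusted p = 9.92e-07). Timp2 had 288, 304 and 368 CPM in tumours, against 199, 241 and 162 CPM in Foxp3Ctrl nodes (0.72 ± 0.18 SE, edgeR adjusted p = 0.00781). Both rose without overlap, Timp1 by 23.9-fold and Timp2 by 1.65-fold. Timp3 did not pass, at 60.1, 31.3 and 38.6 CPM in tumours, against 56.2, 58.1 and 36.8 CPM in Foxp3Ctrl nodes (-0.17 ± 0.29 SE, edgeR adjusted p = 0.61), and Syn3 on the other strand covers 21.3% of its exon bases. Timp4, the inhibitor known from heart and fat, fell to 0.559, 0.854 and 0.405 CPM in tumours, against 1.21, 3.02 and 3.19 CPM in Foxp3Ctrl nodes (-1.95 ± 0.45 SE, edgeR adjusted p = 0.00476).

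Lysyl oxidases rose in tumours except for Loxl4. Lox had 81.8, 60.6 and 34.7 CPM in tumours, against 4.27, 9.71 and 2.96 CPM in Foxp3Ctrl nodes (log2 fold change 3.41 ± 0.58 SE, edgeR adjusted p = 0.0023). Loxl2, which crosslinks collagen IV of basement membranes, had 111, 88.0 and 62.9 CPM in tumours, against 4.85, 11.6 and 2.79 CPM in Foxp3Ctrl nodes (3.79 ± 0.60 SE, edgeR adjusted p = 0.00187). For both genes tumour 1 was the highest tumour, tumour 3 the lowest, and Foxp3Ctrl node 2 the highest node, without which the log2 fold changes were 4.11 and 4.59. Loxl3 was far more even, at 84.8, 87.2 and 80.2 CPM in tumours, against 11.4, 13.4 and 13.1 CPM in Foxp3Ctrl nodes (2.79 ± 0.11 SE, edgeR adjusted p = 5.03e-07), and Htra2 on the other strand covers 11.6% of its exon bases. Loxl1 had 45.6, 26.5 and 16.8 CPM in tumours, against 11.1, 8.75 and 6.74 CPM in Foxp3Ctrl nodes (1.79 ± 0.39 SE). Loxl4 stayed low, at 2.66, 0.488 and 0.778 CPM in tumours, against 1.51, 1.44 and 1.04 CPM in Foxp3Ctrl nodes (0.02 ± 0.59 SE), and without tumour 1 it passed as lower (-1.01, edgeR adjusted p = 0.0479).

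Tumour 1 often led. Of the 34 members at a mean of at least 1 CPM in tumours, 19 were highest in tumour 1 and 21 lowest in tumour 3. Neither these counts nor the orders of tumours given below were made over all genes, so a shift of a whole library cannot be told apart from one of the members. The 7 fibroblast markers summed to 2826, 1490 and 986 CPM in tumours 1, 2 and 3, against 743, 895 and 442 CPM in Foxp3Ctrl nodes, with 3 of 7 higher and 2 lower and none at 0. The 2 lower were Dcn and Pdgfra. Most of the tumour sum was Col1a1 (1626, 871 and 550 CPM in tumours 1, 2 and 3) and Col1a2 (1032, 538 and 367 CPM). Both are also in the fibrillar collagen list below. Dcn, Dpt and Pi16 had the same order over the tumours, while Lum and Pdgfra were higher in tumour 3 than in tumour 2. Of the 34 members, 15 had the same order over the 3 tumours as the fibroblast sum, among them Lox, Loxl1, Loxl2, Adamts2, Timp1, Mmp13 and Mmp2. The other 19 did not, among them Loxl3, Mmp14, Timp2, Mmp12 and Adamts1. Tumour 3 also stood apart in other markers: 6 skeletal muscle markers summed to 25.1, 34.0 and 281 CPM in tumours 1, 2 and 3, against 45.5, 48.6 and 61.6 CPM in Foxp3Ctrl nodes, and 6 adipocyte markers to 194, 250 and 28.9 CPM in tumours, against 20.5, 82.5 and 155 CPM in Foxp3Ctrl nodes. None of these markers was at 0 in either group, and Acta1, a skeletal muscle actin, was at 114 CPM in tumour 3. Of 5 muscle markers tested, 1 passed edgeR, as higher, and none of the 6 adipocyte markers did. The part of fibroblast, muscle or fat content in these values was not tested.

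The matrix proteins and helper enzymes around these families were read from lists of known members. In the node comparison 0 members of any of the 9 lists passed edgeR, with list medians between -0.36 for fibrillar collagens and 0.12 for lecticans and their partners. An unadjusted p under 0.05 was reached by 1 basement membrane gene and 1 fibrillar collagen gene. In tumours, the elastic fibre list, which holds elastin with microfibril and accessory genes, had 9 of 13 genes higher and 0 lower than in Foxp3Ctrl nodes, with a median log2 fold change of 2.30. Eln, the elastin that lysyl oxidases crosslink, was not among the 9, at 82.3, 70.7 and 15.0 CPM in tumours, against 77.7, 97.4 and 47.1 CPM in Foxp3Ctrl nodes (log2 fold change -0.36 ± 0.65 SE, edgeR adjusted p = 0.642). Mfap2, Ltbp1 and Fbn2 did not pass either. Among the 9, Fbln5, a fibulin that binds elastin, averaged 437 ± 13.8 CPM in tumours and 10.8 ± 3.64 CPM in Foxp3Ctrl nodes (SD, n = 3 each). Fbln1 rose by 6.11 on the log2 scale.

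Other collagen-modifying enzymes had 10 of 13 higher and 2 lower (median 2.32), among them the lysyl hydroxylase gene Plod2, at 187 ± 39.5 CPM in tumours and 7.39 ± 1.80 CPM in Foxp3Ctrl nodes, and the collagen chaperone gene Serpinh1, at 673 ± 97.8 CPM in tumours and 85.9 ± 15.2 CPM in Foxp3Ctrl nodes (SD, n = 3 each). Fibrillar collagens had 8 of 11 higher and 2 lower (median 2.12), with Col5a3 higher by 4.00 and Col27a1 lower by a log2 fold change of -3.00. Basement membrane genes had 8 of 11 higher and 0 lower (median 1.36). Each of these shares stands beside 35.6% of all genes called higher and 37.6% called lower.

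Against the same background, cathepsins, another protease system, had 4 of 14 genes higher and 7 lower (median -0.66), among them Ctse (log2 fold change -5.76) and Ctsw (-4.11), a cathepsin of cytotoxic lymphocytes. ADAM proteases had 4 of 9 higher and 3 lower (median 0.34), with Adam19 at -2.83. The list of other protease regulators and ADAMTS-like proteins had 11 of 16 higher and 4 lower (median 1.56), including Adamtsl4 (3.11), Adamtsl5 (3.15) and Bsg (2.16), which encodes the MMP inducer basigin. Lecticans and their partners had 3 of 6 higher and 2 lower (median 0.73). Vcan, the versican that Adamts1 and Adamts20 cut, averaged 19.9 ± 15.9 CPM in tumours and 2.82 ± 1.20 CPM in Foxp3Ctrl nodes (SD, n = 3 each; edgeR adjusted p = 0.00772).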

How the data were processed

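Bulk RNA sequencing of whole tdLN and whole tumours was labelled for 13 samples, and 9 libraries were used. Another 3 columns of the tumour table match no labelled sample and were not used, so the 4 Foxp3ΔJag1 tumours were not analysed here. The deposited values are whole-number read counts per gene, not normalized. The submitters' processing notes name the build GRCm38 and list Trimmomatic 0.36 with STAR 2.5.2b, Subread 1.5.2 and its featureCounts. Neither an annotation nor a strand setting is given there. Of 49315 identifiers, 48970 matched GENCODE M21.

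CPM used total counts without normalization factors. Both tables were joined by identifier. Genes were tested with edgeR 4.0.16 (R 4.3.3; quasi-likelihood, TMM, filterByExpr, robust) and called at a Benjamini-Hochberg adjusted p under 0.05 over the whole table, with the pair of groups compared fitted alone. The SE is the log2 fold change divided by the square root of F. Counting intervals and floors cover counting error only, with a floor of 3 counts over a group. No test was run over the members as a set.

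Same-numbered tumour and Foxp3Ctrl node share a mouse by library name, and their deviations from the group means correlated at -0.083, 0.126 and -0.0038. The members and all gene lists were chosen with earlier results of these data known. The tumour values of 1 further list are not reported here. Genes described per library were the 6 smallest p in the node, the 8 largest rises and 8 largest falls among called members without overlap in the tissue comparison, the 8 highest per kilobase and all Timp and Lox genes. Further genes were added after their values were seen, to complete each role: Mmp3, Mmp7, Mmp8, Adamts2, Adamts12, Adamts16, Adamts19, Adamts20, Adamts13, Mmp10 and Mmp19.

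As alternatives, the normalization was replaced by DESeq2 size factors or by none, the test by DESeq2 1.42.0 or limma-voom (limma 3.58.1), and the filter by none or by 1 CPM in 3 libraries. Dispersion was also left non-robust or shared over 9 libraries, the replicate number was used as a block, and each replicate was left out in turn. On simulated counts, the node design (18140 genes) called 63 of 98 genes at a 2-fold and 90 of 97 at a 4-fold change, and the tissue design (18160 genes) 38 of 99 and 83 of 99. False calls were 21 of 174 in the node design and 9 of 130 in the tissue design. Few genes were changed in either, unlike the 73.2% called in the real tissue comparison, so these shares may not hold for the data.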

Additional observations from a re-analysis of the deposited data

How the results depend on the processing

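In the node comparison 0 members passed under each of 15 alternatives, among them the replicate block (0 members), although the numbers there join different mice, whose deviations correlated at -0.165, 0.0336 and -0.124. Calls over all genes were 7, but 44 with DESeq2, 16 without a filter, 11 with the block, 21 without Foxp3Ctrl node 3 and 16 without Foxp3ΔJag1 node 2. In the tissue comparison the members called were 17 higher and 13 lower, with ranges over 15 alternatives of 16 to 20 and 12 to 14, and 19 and 13 with the mouse as replicate block. Node log2 fold changes that changed sign when single libraries were left out ranged from -1.29 to 0.075 for Adamts4, -0.16 to 0.22 for Loxl1, -0.98 to 0.17 for Loxl2, -0.054 to 0.16 for Loxl3, -0.43 to 0.080 for Loxl4, -0.37 to 0.16 for Mmp14, -0.60 to 0.085 for Mmp2 and -0.22 to 0.23 for Timp1, which was also -0.020 with limma-voom. In the tissue comparison Timp3 ranged from -0.46 to 0.044 and Loxl4 from -1.01 to 0.45, and Loxl4 was -0.025 with library size only, -0.33 with limma-voom, -0.013 with the CPM filter and -0.28 with the block. None of these sign changes concerned a called value except Loxl4 without tumour 1, and the cause was not tested. With 3 animals a group, 2-fold changes were called in 63 of 98 simulated node genes, so real changes of 2-fold or less could go undetected.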
